A study of Mus musculus with 48 samples.

Results

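Cathepsins are the proteases of lysosomes and endosomes, and cystatins are small proteins that inhibit those of the papain type. The 10 genes described here were taken by symbol from the 35870 genes of the count table. They are 8 cathepsins (Ctsb, Ctsc, Ctsd, Ctse, Ctsh, Ctsl, Ctss and Ctsz) and 2 cystatins (Cst3 and Cst7), and all 10 passed the filter on low counts in both tissues. Polyadenylated RNA had been sequenced from sorted brain microglia and from whole spinal cord of wild-type C57BL/6 mice, with 8 libraries in each of 6 groups. Old repopulating mice (23 months) had received an inhibitor of Csf1r, the receptor on which microglia depend for survival, for 5 days and had then been left to recover for 7 days. Old mice (23 months) and young mice (3 months) had received vehicle. The sort took cells positive for Cd11b and Cd45, a gate that other myeloid cells can also enter, and the cord was taken whole. The labels do not say whether the libraries of a group come from separate animals, so the p-values measure the spread between libraries, part of which may be technical. Nor do the labels say whether microglia and cord came from the same mice.

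A cathepsin is made as an inactive precursor, carried to the endosome by mannose 6-phosphate receptors or sortilin, and activated there as the pH falls. Microglia, the resident macrophages of the brain and cord, use these enzymes to degrade what they engulf and to process antigen. Cystatin C (Cst3) is secreted and inhibits papain-type cathepsins outside cells or after uptake, whereas cystatin F (Cst7) is made by immune cells and acts inside their endosomes and lysosomes. Neither inhibits the aspartic proteases Ctsd and Ctse.

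The libraries held 18741936 to 34496308 assigned reads in microglia and 15909868 to 33004806 in cord, so the members other than Ctse and Cst7 were measured with little counting error. All 9 microglial markers (P2ry12, P2ry13, Tmem119, Sall1, Siglech, Gpr34, Olfml3, Fcrls and Cx3cr1) were higher in young microglia than in young cord. The 10 members together took a mean of 6.07% of all assigned reads in old repopulating microglia, 5.58% in old microglia and 5.63% in young microglia. In cord their mean share was 0.361% in old repopulating, 0.305% in old and 0.221% in young libraries. One library, old repopulating cord replicate 6, stood apart: its share was 0.529%, and ribosomal protein genes took 3.17% of its reads against a group mean of 1.41%. Where leaving it out changed the call of a cord result described below, or moved its difference strongly, the value without it is also given.

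Promoter sequence was available for 7 of the 10 members (Ctsc, Ctsd, Ctsl, Ctss, Ctsz, Cst3 and Cst7) from RefSeq on GRCm38.p6. The 250 bases before each start were searched on both strands for CACGTG, the palindromic E-box core recognised by transcription factors of the Tfeb family, and for GAGGAA, a core of sites for the myeloid factor Spi1 (PU.1). CACGTG was in 6.02% of 32851 mouse promoters of the same length and GAGGAA in 23.3%. Ctsd and Ctsl held CACGTG, Ctsc, Ctss and Cst3 held GAGGAA, and Ctsz and Cst7 held neither. The windows of 30 bases around these matches are shown because Tfeb, Tfe3 and Spi1 are among the genes measured below. The capitals mark the motif, or its reverse complement TTCCTC, and each window is written 5′ to 3′ along the gene's strand. Distances are from the RefSeq start, which lies 211 bases inside the GENCODE gene for Ctsd, 370 bases for Ctsl and 180 bases for Cst3, and is the same base for Ctss and Ctsc. The nearer Ctsd window and the Ctsl window therefore fall within GENCODE exons of their genes, and the other windows lie before the GENCODE gene.
Ctsd, 245 bases before the RefSeq start (chr7:142388048-142388077, minus strand): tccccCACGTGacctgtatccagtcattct
Ctsd, 98 bases before the RefSeq start, in a GENCODE exon (chr7:142387908-142387937, minus strand): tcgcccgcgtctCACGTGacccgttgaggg
Ctsl, 236 bases before the RefSeq start, in a GENCODE exon (chr13:64370739-64370768, minus strand): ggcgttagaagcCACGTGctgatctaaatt
Ctsc, 196 bases before the start (chr7:88277877-88277906, plus strand): ccactttccttcTTCCTCctagtggtgcct
Ctsc, 149 bases before the start (chr7:88277924-88277953, plus strand): tcactaactaacTTCCTCaggccacctcgt
Cst3, 230 bases before the RefSeq start (chr2:148875725-148875754, minus strand): aagggcacagaaGAGGAActggtaagaaca

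The whole stretch of 250 bases is shown for Ctss and Cst7, because these members had the largest differences between young cord and both old cord groups. That of Ctss carries GAGGAA 164 bases before the start, in capitals, and that of Cst7 has no match to either motif. A match of letters is a description of the sequence and does not show that a factor binds there.
Ctss (chr3:95526536-95526785, plus strand): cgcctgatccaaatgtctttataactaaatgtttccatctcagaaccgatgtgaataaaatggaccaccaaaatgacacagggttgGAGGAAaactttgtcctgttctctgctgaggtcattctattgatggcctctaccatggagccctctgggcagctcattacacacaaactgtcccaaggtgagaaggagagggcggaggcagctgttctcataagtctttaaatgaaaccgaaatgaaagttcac
Cst7 (chr2:150570165-150570414, plus strand): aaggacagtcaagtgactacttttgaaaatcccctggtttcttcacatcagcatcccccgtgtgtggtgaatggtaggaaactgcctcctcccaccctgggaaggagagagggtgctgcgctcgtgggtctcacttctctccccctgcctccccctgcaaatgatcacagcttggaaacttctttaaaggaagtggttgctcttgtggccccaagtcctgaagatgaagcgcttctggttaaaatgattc

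Per unit length, Cst3 and Ctsd had the highest mean levels of all 35870 genes in sorted microglia. Cst3 ranked 1 in all 3 microglia groups, with 32017 ± 5186 TPM in old repopulating, 41163 ± 2689 TPM in old and 62050 ± 2133 TPM in young microglia (TPM, a read share corrected for gene length; SD, n = 8 each here and below). Ctsd ranked 2 in all 3 groups, with 26074 ± 2117 TPM in old repopulating, 23144 ± 2086 TPM in old and 24124 ± 665 TPM in young microglia. Ctss ranked 5, 6 and 7 in the same order of groups, with 16567 ± 1316, 13528 ± 975 and 12048 ± 753 TPM. The group means of the other papain-type members lay between 2227 and 3989 TPM for Ctsb and Ctsz, between 1070.2 and 1532 TPM for Ctsh, and between 154 and 856 TPM for Ctsl and Ctsc. Cst7 ranked 472 in old repopulating and 473 in old microglia, with 244 ± 50.6 and 259 ± 53.0 TPM, but 4500 in young microglia, with 24.3 ± 4.80 TPM. Ctse was the lowest member in sorted microglia and changed its place the most, ranking 5295 in old repopulating, 6387 in old and 10925 in young microglia, at 14.9 ± 6.41 TPM in old repopulating, 12.9 ± 2.19 TPM in old and 1.56 ± 0.342 TPM in young libraries.

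In whole cord Cst3 and Ctsd were again the highest members, at 2142 ± 404.2 and 1566 ± 153 TPM in old repopulating, 2061 ± 74.4 and 1314 ± 107 TPM in old, and 1831 ± 195 and 746 ± 125 TPM in young cord. Cst7 was at 15.2 ± 2.69 TPM in old repopulating, 11.5 ± 2.23 TPM in old and 0.294 ± 0.192 TPM in young cord. Its rank among all genes was 8718 in old repopulating, 10082 in old and 19621 in young cord. Over the 6 groups, mean TPM was highest in old repopulating microglia for Ctsb, Ctsd, Ctse, Ctsh and Ctss, in old microglia for Ctsc, Ctsl, Ctsz and Cst7, and in young microglia for Cst3. Every microglia group lay above every cord group with no overlap of libraries for 8 of the members. The exceptions were Cst7, whose young microglia overlapped old repopulating cord, and Ctse, whose young microglia overlapped all 3 cord groups and had the lowest mean of the 6. Within the order of each gene, old repopulating and old cord overlapped in TPM for all 10 members, while old and young cord did not overlap for Ctsd, Ctsh, Ctss, Ctsz and Cst7.

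**Figure D1:**
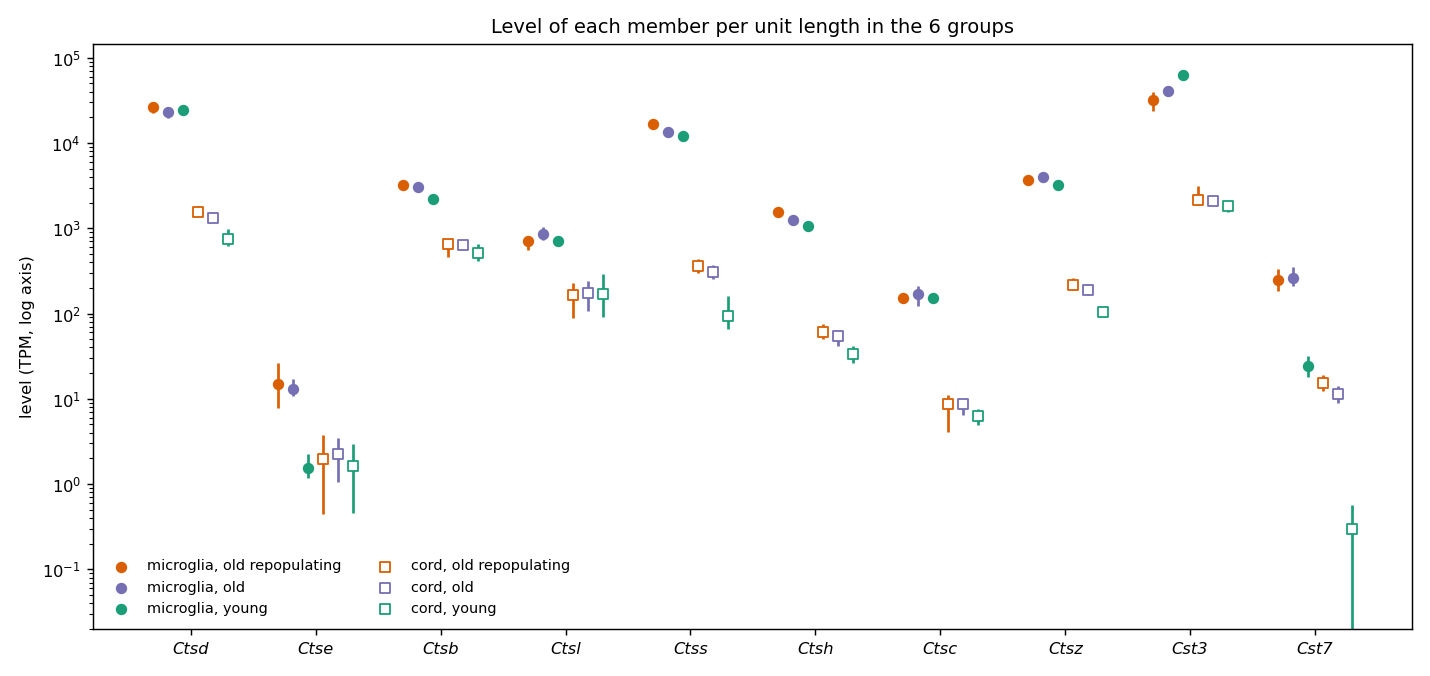
Mean level of each member in TPM (log axis), with microglia as filled circles, cord as open squares and colours for old repopulating, old and young groups (n = 8 libraries each). Vertical lines run from the lowest to the highest library, and a line that reaches the foot of the axis includes a library at 0; Cst3 and Ctsd lie highest in all 6 groups, the lowest mean of Cst7 is in young cord, and that of Ctse in young microglia.

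In sorted microglia, 8 members were higher in old than in young mice and 4 were higher in old repopulating than in old mice. Old microglia had higher levels of Ctsb, Ctsc, Ctse, Ctsh, Ctsl, Ctss, Ctsz and Cst7 than young microglia and a lower level of Cst3, whereas Ctsd did not pass the test. The changes were largest for Cst7 (11.2-fold) and Ctse (8.73-fold) and between 1.16-fold and 1.42-fold for the other 6 that rose. Old repopulating microglia had higher levels of Ctsb, Ctsd, Ctsh and Ctss than old microglia, by 1.28-fold to 1.45-fold, and none of the 10 was called lower. Against young microglia, old repopulating microglia were higher in 9 members and lower in Cst3. Summed over the 8 cathepsins, a total of which Ctsd and Ctss make up most, the libraries ranged from 46794 to 59889 CPM in old repopulating, 33463 to 44968 CPM in old and 31729 to 39579 CPM in young microglia (CPM, a gene's read count scaled to library size by TMM). The 2 cystatins together, nearly all Cst3, ranged from 10126 to 15602 CPM in old repopulating, 11804 to 16192 CPM in old and 18172 to 23669 CPM in young microglia.

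Calls are from edgeR's quasi-likelihood test at an adjusted p under 0.05 over all 14382 genes tested. Of those genes 16.2% were called between old repopulating and old microglia, 9.05% higher, beside 4 of the 10 members. Between old and young microglia 21.7% were called, 11% higher and 10.7% lower, beside 8 members higher and 1 lower. In old repopulating against young microglia 32.7% were called, 16.1% higher and 16.5% lower, beside 9 members higher and 1 lower. The median log2 fold change of the members was 0.26 in the first of these comparisons, 0.32 in the second and 0.65 in the third, beside -0.04, -0.01 and -0.06 over all genes tested. The 3 comparisons share their libraries pairwise and are not independent.

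The ranges of old repopulating and old libraries did not overlap for Ctsh and Ctss, beside 3.06% of all genes tested. Old and young libraries did not overlap for 4 members (Ctsb, Ctse and Cst7 above, Cst3 below), beside 7.16% of genes. Old repopulating and young libraries did not overlap for 7 members (Ctsb, Ctse, Ctsh, Ctss, Ctsz and Cst7 above, Cst3 below), beside 13.1% of genes.

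**Figure D2:**
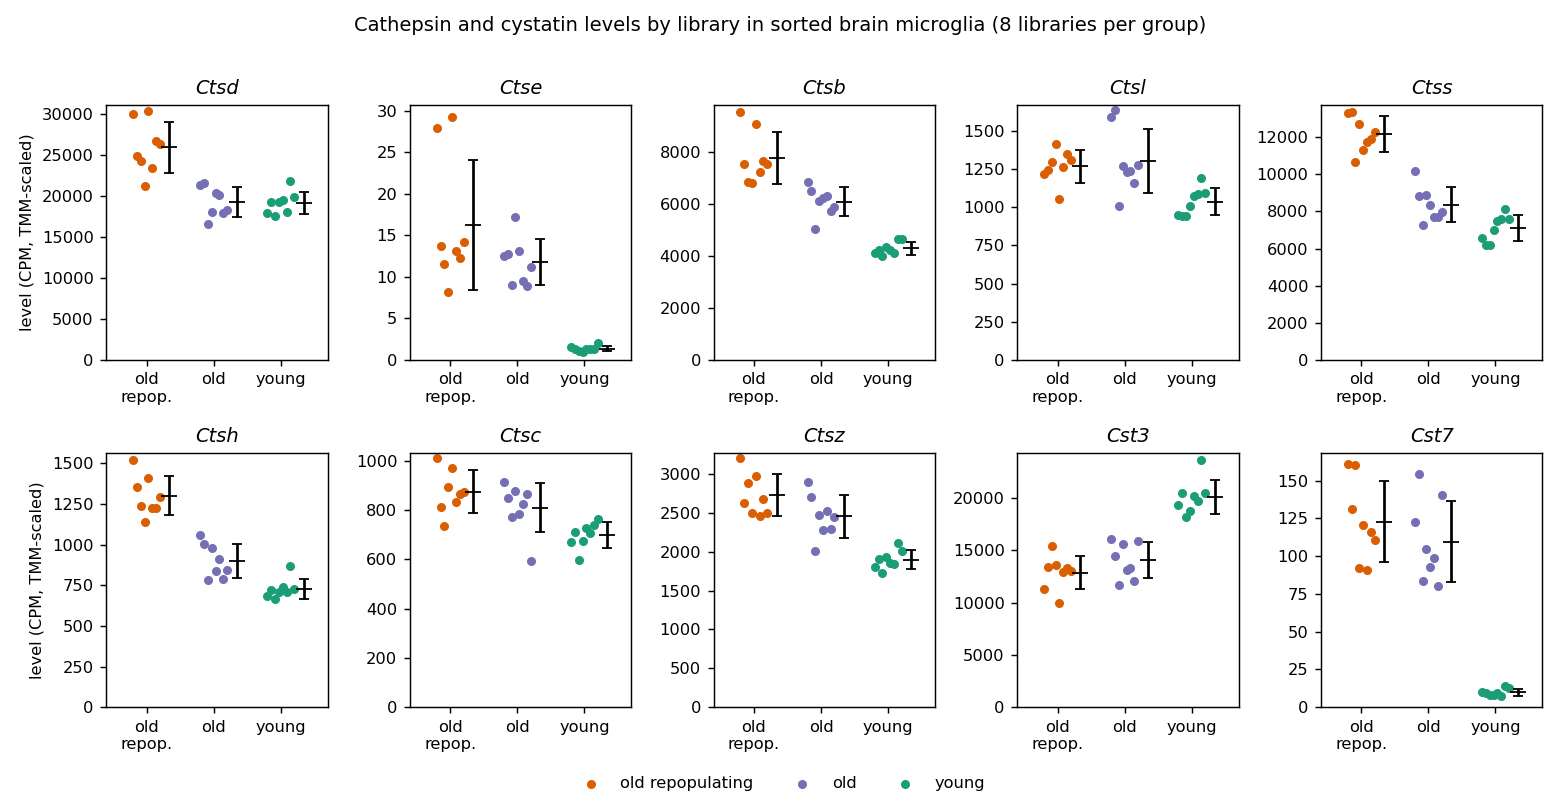
Level of each member in every sorted microglia library in CPM scaled by TMM (linear axes from 0), for old repopulating, old and young groups; bars mark the mean and whiskers the SD (n = 8 libraries each). The young libraries lie near the foot of the axis for Ctse and Cst7 and above all others for Cst3, and the old repopulating libraries lie above all old libraries for Ctsh and Ctss.

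Of the 2 aspartic proteases, Ctsd (chr7:142375911-142388038, minus strand, GRCm38) is the main one of lysosomes. It had 21295 CPM in the lowest, 25685 in the median and 30438 in the highest old repopulating library. The same values were 16570, 19185 and 21569 CPM in old and 17580, 19322 and 21849 CPM in young microglia. Old and young libraries covered almost the same range, and only the lowest old repopulating library fell below the highest of either. Ctsd was 1.35-fold higher in old repopulating than in old microglia (log2 0.43, SE 0.07, adjusted p = 3.55e-05 by edgeR). Between old and young microglia the log2 difference was 0.01, with a 95% interval from -0.13 to 0.14 (normal approximation) and an adjusted p of 0.967. The exons of Ctsd overlap those of the predicted gene Gm49369 on the same strand, so reads from the overlap cannot be told apart.

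Ctse (chr1:131638306-131675505, plus strand), an endosomal aspartic protease, was rare in young microglia, at 0.981, 1.32 and 2.01 CPM (lowest, median and highest library). It reached 8.14, 13.4 and 29.2 CPM in old repopulating and 8.91, 11.8 and 17.2 CPM in old microglia. Every old library, repopulating or not, lay above every young one. Ctse was 8.73-fold higher in old than in young microglia (log2 3.13, SE 0.24, adjusted p = 1.82e-11 by edgeR), on 242 to 486 reads per old library and 33 to 64 per young library. On the log2(TPM + 1) scale, which compresses low levels, this difference was 2.44. Old repopulating replicates 1 and 5 held 27.9 and 29.2 CPM, and the other 6 libraries of that group held 8.14 to 14.2 CPM. The log2 difference between old repopulating and old microglia was 0.47 (SE 0.22, adjusted p = 0.154 by edgeR) with these replicates and 0.04 without both.

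Among the papain-type endopeptidases, Ctsb (chr14:63122462-63145923, plus strand), which also removes dipeptides from the C terminus, stepped through the 3 groups. It had 6799, 7558 and 9541 CPM in old repopulating, 5025, 6189.9 and 6872 CPM in old and 4002, 4246 and 4670.3 CPM in young microglia (lowest, median, highest). All old libraries exceeded all young ones, and the old repopulating and old ranges touched only at their ends. Ctsb was 1.28-fold higher in old repopulating than in old microglia (log2 0.35, SE 0.07, adjusted p = 0.000404 by edgeR). It was 1.42-fold higher in old than in young microglia (log2 0.50, SE 0.07, adjusted p = 1.61e-06). Its exons overlap Fdft1 on the other strand, and these libraries do not keep the strand.

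Ctss (chr3:95526786-95556403, plus strand), which trims the invariant chain of class II molecules and stays active at neutral pH, had 10689, 12102 and 13379 CPM in old repopulating microglia. Old microglia had 7287, 8171 and 10209 CPM and young microglia 6207, 7241 and 8161 CPM. The lowest old repopulating library exceeded the highest old one, while old and young ranges overlapped. Ctss was 1.45-fold higher in old repopulating than in old microglia (log2 0.54, SE 0.07, adjusted p = 1.197e-06 by edgeR). It was 1.18-fold higher in old than in young microglia (log2 0.24, SE 0.07, adjusted p = 0.0124), a call lost on the log2(TPM + 1) scale.

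Ctsl (chr13:64359337-64370890, minus strand), an endopeptidase of lysosomes, differed less between the groups. It had 1055, 1281 and 1415 CPM in old repopulating, 1012, 1254 and 1636 CPM in old and 944 (lowest), 1043 and 1194 CPM in young microglia. All 3 ranges overlapped. Ctsl was 1.26-fold higher in old than in young microglia (log2 0.33, SE 0.08, adjusted p = 0.00277 by edgeR), and its log2 difference between old repopulating and old microglia was -0.04 (SE 0.08, adjusted p = 0.82). Its exons overlap the antisense gene Gm47123 and the processed pseudogene Gm49230.

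The exopeptidases were Ctsh, Ctsc and Ctsz. Ctsh (chr9:90054152-90076089, plus strand), mainly an aminopeptidase, had 1141, 1268 and 1524 CPM in old repopulating, 782, 879 and 1062 CPM in old and 668, 714 and 869 CPM in young microglia. All old repopulating libraries exceeded all old ones, and the old and young ranges overlapped. Ctsh was 1.44-fold higher in old repopulating than in old microglia (log2 0.53, SE 0.07, adjusted p = 2.26e-06 by edgeR) and 1.24-fold higher in old than in young microglia (log2 0.31, SE 0.07, adjusted p = 0.00155).

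Ctsc (chr7:88278085-88310888, plus strand), a dipeptidyl peptidase that activates the serine proteases of granules, had 736, 868 and 1011 CPM in old repopulating, 594, 836 and 913 CPM in old and 598, 708 and 764 CPM in young microglia. The ranges of all 3 groups overlapped. Its difference between old and young microglia was small (log2 0.21, SE 0.07, adjusted p = 0.0387 by edgeR), and it lost the call when any one of old replicates 1, 2, 4, 6 or 7 or young replicates 1, 2, 3, 4 or 6 was left out (adjusted p between 0.0536 and 0.0901). Ctsc was 1.25-fold higher in old repopulating than in young microglia (log2 0.32, adjusted p = 0.000959).

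Ctsz (chr2:174427493-174439039, minus strand), a carboxypeptidase, had 2460.0, 2654 and 3200.5 CPM in old repopulating, 2008, 2465 and 2899 CPM in old and 1721, 1883 and 2117 CPM in young microglia. The old repopulating libraries lay above all young ones, while the old range overlapped both. Ctsz was 1.29-fold higher in old than in young microglia (log2 0.37, SE 0.07, adjusted p = 0.000119 by edgeR). Its log2 difference between old repopulating and old microglia was 0.15 (adjusted p = 0.133), and it was called only when old microglia replicate 1 was left out (0.20, adjusted p = 0.0432). Its exons overlap Nelfcd on the other strand.

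The inhibitors moved in opposite directions with age. Cst3 (chr2:148871722-148875692, minus strand) had 10006, 13172 and 15442 CPM in old repopulating, 11720, 13899 and 16070 CPM in old and 18164, 19967 and 23655 CPM in young microglia. Every young library exceeded every library of both old groups, which overlapped each other. Cst3 was 1.43-fold lower in old than in young microglia (log2 -0.52, SE 0.08, adjusted p = 5.62e-06 by edgeR) and 1.56-fold lower in old repopulating than in young microglia (log2 -0.64, SE 0.08, adjusted p = 6.70e-08). The log2 difference between old repopulating and old microglia was -0.12 (SE 0.08, adjusted p = 0.306), with the lowest levels, 11274 and 10006 CPM, again in old repopulating replicates 1 and 5.

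Cst7 (chr2:150570415-150578944, plus strand) had 90.5, 118 and 161 CPM in old repopulating, 79.9, 102 and 155 CPM in old and 7.08, 9.37 and 13.7 CPM in young microglia. The highest young library lay far below the lowest library of either old group, and the old groups overlapped. Cst7 was 11.2-fold higher in old than in young microglia (log2 3.48, SE 0.16, adjusted p = 9.74e-17 by edgeR) and 12.5-fold higher in old repopulating than in young microglia (log2 3.65, SE 0.16, adjusted p = 2.49e-17). Against old microglia, the log2 difference of old repopulating microglia was 0.16, with a 95% interval from -0.12 to 0.45 and an adjusted p of 0.503.

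**Figure D3:**
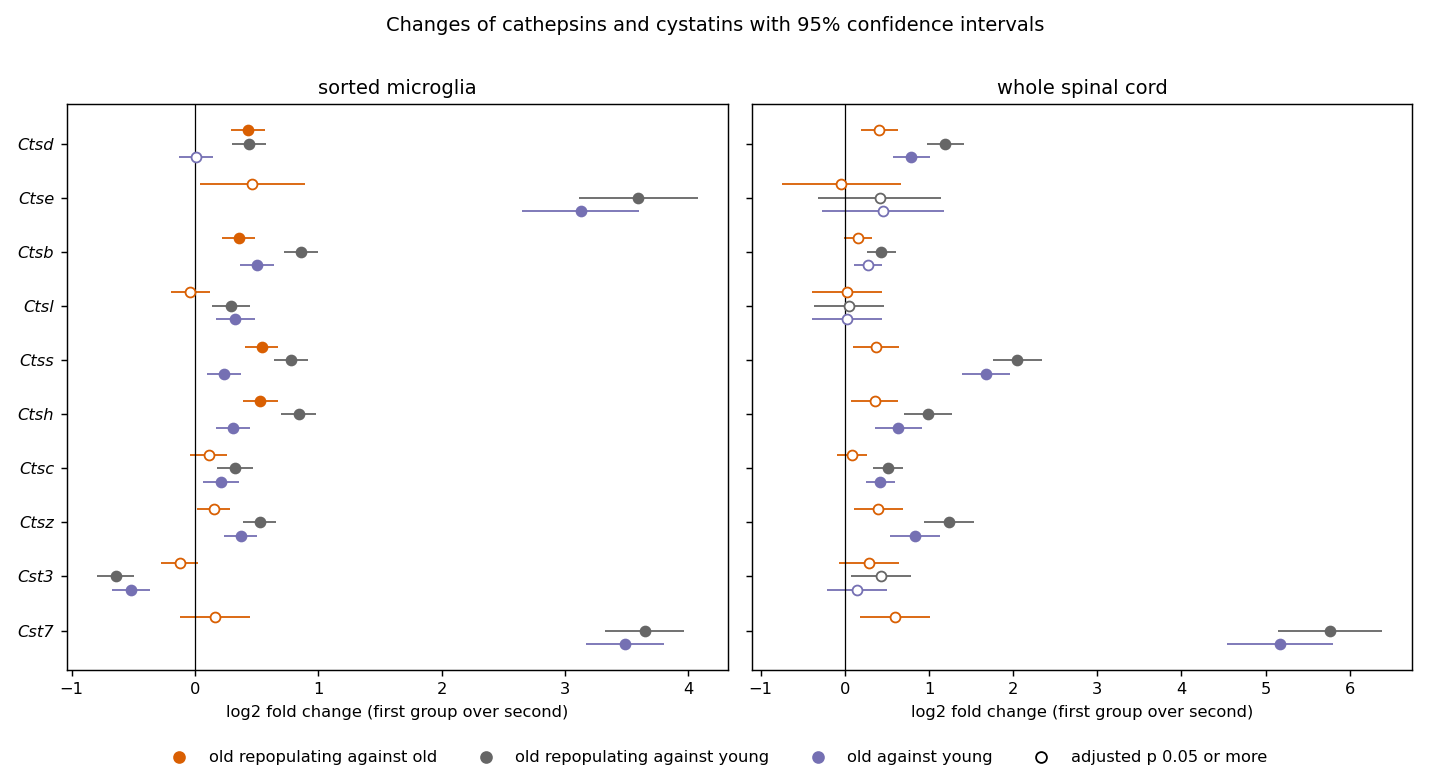
Log2 fold changes of the 10 members in sorted microglia (left) and whole cord (right), with the first named group over the second; lines are 95% intervals by a normal approximation and open points have an adjusted p of 0.05 or more. In microglia Cst7 and Ctse stand beyond 3 for both comparisons with young mice and Cst3 lies below 0; in cord Cst7 stands beyond 5 and all points of old repopulating against old are open.

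The comparison of old repopulating with old or young microglia depended on how libraries were scaled. Scaled to total counts, the median log2 fold change of all genes between old repopulating and old microglia was -0.21, against -0.04 with TMM, and on that scale 17.6% of the called genes were higher, against 55.7% with TMM. Ctsb, Ctsd, Ctsh and Ctss stayed called higher with total counts, and Ctsl (log2 -0.20, adjusted p = 0.0493 by edgeR) and Cst3 (-0.28, adjusted p = 0.00449) were then called lower. On the log2(TPM + 1) scale with limma, 10.4% of the called genes were higher; Ctsh (0.28) and Ctss (0.29) stayed called higher, while Ctsb (0.10, adjusted p = 0.197) and Ctsd (0.17, adjusted p = 0.0929) did not. Ctsl (-0.28, adjusted p = 0.00529) and Cst3 (-0.38, adjusted p = 0.00575) were called lower on that scale. Ribosomal protein genes took a mean of 5.62% of reads in old repopulating, 3.46% in old and 2.35% in young microglia, and their part in this shift was not tested. Between old repopulating and young microglia 49.4% of called genes were higher with TMM, 31.8% with total counts and 16.8% with log2(TPM + 1), where the differences of Ctsc (-0.0011) and Ctsl (-0.030) were no longer called and changed sign and the call of Ctsd was lost (0.11, adjusted p = 0.262). Between old and young microglia they were 50.7% with TMM, 60.4% with total counts, 60.9% with DESeq2 size factors and 40.7% with log2(TPM + 1), where the call of Ctsc was also lost.

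Markers of other cells in the gate moved with the same groups. The summed level of 11 neutrophil markers (S100a8, S100a9 and 9 others) ranged from 879 to 3836 CPM in old repopulating, 2263 to 9627 CPM in old and 248.6 to 1094 CPM in young microglia. All 11 were higher in old than in young microglia and lower in old repopulating than in old microglia. The 7 monocyte markers summed to 243 to 615 CPM in old repopulating, 508 to 1258 CPM in old and 75.8 to 215 CPM in young microglia, and all 7 were higher in old than in young microglia. The 9 markers of border-associated macrophages summed to 84.9 to 192 CPM in old repopulating, 334 to 705 CPM in old and 166 to 416.7 CPM in young microglia; all 9 were lower in old repopulating than in old microglia. No marker of these lists was at 0 in all libraries of a group. The 9 microglial markers summed to 19639 to 25071 CPM in old repopulating, 22946 to 27804 CPM in old and 34399.6 to 40053 CPM in young microglia, and all 9 were lower in old than in young microglia. The part of these cells in the members' levels was not tested.

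**Figure D4:**
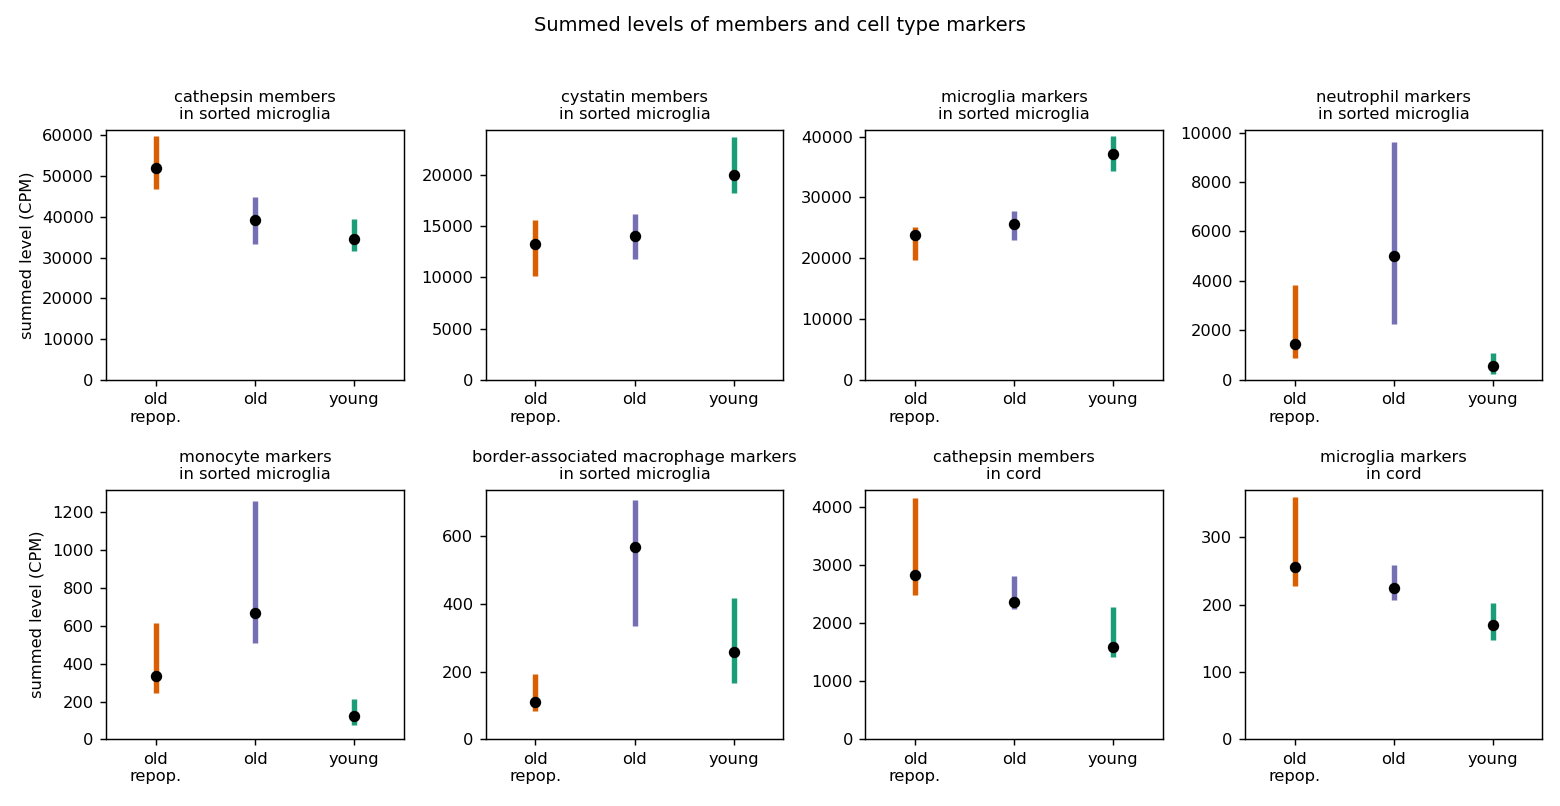
Summed level (CPM, each panel with its own linear axis from 0) of the cathepsin members, the cystatin members and the marker lists in sorted microglia, and of the cathepsin members and microglial markers in cord, for old repopulating, old and young groups. Points are medians and bars run from the lowest to the highest of 8 libraries; in microglia the summed cathepsins of all old repopulating libraries exceed all others, while neutrophil and monocyte markers are highest in old microglia and microglial markers and summed cystatins in young microglia.

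In whole cord, 6 members were higher in old than in young mice and 7 were higher in old repopulating than in young mice, and no member passed the test between old repopulating and old cord. Cst7 was 36.0-fold and Ctss 3.20-fold higher in old than in young cord, and Ctsd, Ctsz, Ctsh and Ctsc were 1.34-fold to 1.78-fold higher. Ctse, Ctsl and Cst3 were not called in any of the 3 cord comparisons. In whole tissue, more cells of a type and more RNA per cell cannot be told apart. The 9 microglial markers summed to 228 to 359.9 CPM in old repopulating, 206 to 259 CPM in old and 148 to 203 CPM in young cord; 4 of the 9 were higher in old and 6 in old repopulating cord than in young cord, and their part in the members' levels was not tested.

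Of the 18271 genes tested in cord, 6.15% were called between old and young mice, 4.88% higher, beside the 6 members; without old repopulating replicate 6, which enters the shared estimate of the spread, 2109 genes and 7 members were called, where 1123 and 6 were called with it. In old repopulating against young cord 10.1% were called, 7.28% higher, beside 7 members. In old repopulating against old cord 0.148% of genes were called with edgeR and none of the members. DESeq2 and limma also called none of the members. At an unadjusted p under 0.05, 5 members were higher there by edgeR (Ctsd, Ctsh, Ctss, Ctsz and Cst7), and 5 by DESeq2. The share of all genes at that threshold was not computed, so this count is not read as a result about the members. For each of the 5 named, replicate 6 was the highest old repopulating library. Old and young cord libraries did not overlap for Ctsd, Ctsh, Ctss, Ctsz and Cst7, beside 3.06% of genes tested. Old repopulating and young cord did not overlap for these 5 and Ctsc, beside 3.61% of genes. Old repopulating and old cord overlapped for all 10 members, beside 0.0493% of genes that did not.

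**Figure D5:**
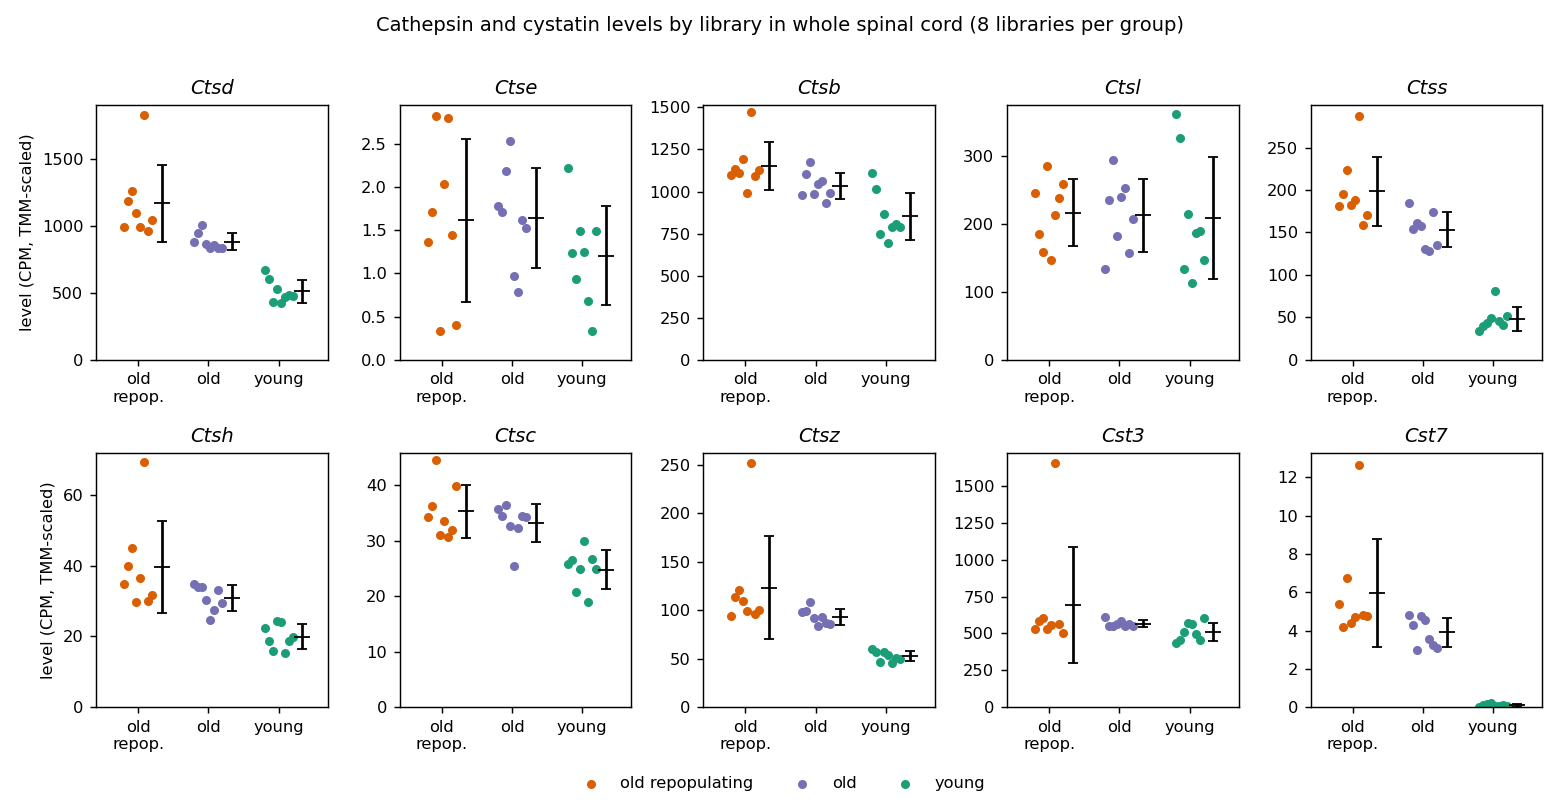
Level of each member in every whole cord library in CPM scaled by TMM (linear axes from 0), for old repopulating, old and young groups; bars mark the mean and whiskers the SD (n = 8 libraries each). The young libraries lie below both old groups for Ctsd, Ctsh, Ctss, Ctsz and Cst7, and a single old repopulating library, replicate 6, lies above the rest of its group for Cst3, Cst7, Ctsb, Ctsd, Ctsh, Ctss and Ctsz.

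Among the aspartic proteases in cord, Ctsd had 965, 1072 and 1836 CPM in old repopulating, 835, 865 and 1007 CPM in old and 426.5, 481 and 673 CPM in young libraries (lowest, median, highest). All libraries of both old groups exceeded the highest young one. Ctsd was 1.73-fold higher in old than in young cord (log2 0.79, SE 0.11, adjusted p = 2.25e-05 by edgeR) and 2.29-fold higher in old repopulating than in young cord (log2 1.196, adjusted p = 3.42e-08; 1.08 without replicate 6). Between old repopulating and old cord its log2 difference was 0.41 (SE 0.11, adjusted p = 0.283), and 0.28 without replicate 6. Ctse rested on few reads, with 10 to 83 reads per library in old repopulating, 20 to 71 in old and 9 to 51 in young cord, and its log2 difference between old and young cord was 0.46 (SE 0.37, adjusted p = 0.666).

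Ctss had 159, 185 and 287 CPM in old repopulating, 128, 156 and 185 CPM in old and 33.3, 43.9 and 81.0 CPM in young cord. The lowest old library exceeded the highest young one, and the old repopulating and old ranges overlapped. Between old repopulating and old cord the log2 difference of Ctss was 0.37 (SE 0.14, adjusted p = 0.681 by edgeR), and 0.28 at the lowest with 1 library left out. Ctss was 3.20-fold higher in old than in young cord (log2 1.68, SE 0.15, adjusted p = 8.85e-09 by edgeR) and 4.14-fold higher in old repopulating than in young cord (log2 2.05, SE 0.15, adjusted p = 2.42e-10; 1.96 without replicate 6).

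Ctsb had 989.97, 1119 and 1474 CPM in old repopulating, 929.7, 1019 and 1173 CPM in old and 692, 799 and 1109.9 CPM in young cord, with overlap between all groups. It was 1.35-fold higher in old repopulating than in young cord (log2 0.43, SE 0.09, adjusted p = 0.000943 by edgeR). Between old and young cord its log2 difference of 0.28 missed the threshold (SE 0.09, adjusted p = 0.0545), and it passed with total-count scaling (adjusted p = 0.00905) and without old repopulating replicate 6 (adjusted p = 0.0211). Ctsl varied widely within each group, at 146 to 285 CPM in old repopulating, 133 to 294 CPM in old and 114 to 362 CPM in young cord. Its log2 difference between old and young cord was 0.03, with a 95% interval from -0.39 to 0.44.

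Among the exopeptidases in cord, Ctsz had 94.2, 105 and 252 CPM in old repopulating, 83.3, 92.6 and 108 CPM in old and 45.2, 52.2 and 60.3 CPM in young libraries. Ctsh had 29.8, 35.7 and 69.3 CPM in old repopulating, 24.6, 31.7 and 34.9 CPM in old and 15.3, 19.4 and 24.4 CPM in young libraries. In both genes the young libraries lay below all others. Ctsz was 1.78-fold (log2 0.83, SE 0.15, adjusted p = 0.000469 by edgeR) and Ctsh 1.55-fold higher in old than in young cord (log2 0.64, SE 0.14, adjusted p = 0.00544). Against old cord, the log2 difference of old repopulating cord was 0.40 for Ctsz and 0.35 for Ctsh, and 0.17 and 0.19 without replicate 6; none of these passed the test. Ctsc had 30.7, 33.9 and 44.6 CPM in old repopulating, 25.5, 34.4 and 36.4 CPM in old and 18.9, 25.3 and 29.95 CPM in young cord. Its old range overlapped the young one, and it was 1.34-fold higher in old than in young cord (log2 0.42, SE 0.09, adjusted p = 0.0031 by edgeR), a call lost on the log2(TPM + 1) scale (adjusted p = 0.0958).

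Cst3 in cord had 506, 560.3 and 1657 CPM in old repopulating, 549, 559 and 611 CPM in old and 438.1, 505 and 605 CPM in young libraries. The groups overlapped, and the highest value was that of old repopulating replicate 6. Cst3 was not called between old repopulating and young cord (log2 0.43, SE 0.18, adjusted p = 0.131 by edgeR; 0.11 without replicate 6) or between old and young cord (log2 0.14, SE 0.18, adjusted p = 0.818). Its log2 difference between old repopulating and old cord was 0.29, and -0.03 without replicate 6. Cst7 had 4.20, 4.78 and 12.7 CPM in old repopulating, 2.98, 3.92 and 4.81 CPM in old, and 0, 0.0977 and 0.197 CPM in young cord, where the 8 libraries held 22 reads in all and 1 library held none. Its reads per library were 87 to 203 in old repopulating and 75 to 135 in old cord, and no library of either group came near the young range. Cst7 was 36.0-fold higher in old than in young cord (log2 5.17, SE 0.32, adjusted p = 2.88e-11 by edgeR) and 54.5-fold higher in old repopulating than in young cord (log2 5.77, SE 0.32, adjusted p = 2.30e-12; log2 5.53 without replicate 6). The size of both differences depends on the scale: on log2(TPM + 1), which compresses the low young values, they were 3.27 and 3.64 and still called, and on log2(TPM + 0.1) they were 5.06 and 5.46. Between old repopulating and old cord its log2 difference was 0.60 (SE 0.21, adjusted p = 0.681), and 0.35 without replicate 6.

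Set against whole cord, 9 members were higher in sorted brain microglia under every scaling tried, and Ctse with TMM only. The sorted cells came from brain and the whole tissue was cord, so region and sorting cannot be told apart in comparisons between tissues. With TMM all 10 were called higher in young microglia than in young cord, beside 84.3% of 19110 genes called and 35.4% called higher. Ctss was 269-fold higher (log2 8.07, SE 0.16, edgeR), Cst7 162-fold and Cst3 71.2-fold, and Ctsd, Ctsh, Ctsz and Ctsc were 51.2-fold to 68.1-fold higher. Ctsb (9.16-fold) and Ctsl (9.03-fold) differed less, and Ctse least (2.03-fold, log2 1.02, SE 0.32, adjusted p = 0.00377). The call of Ctse was lost with DESeq2 size factors (0.55, adjusted p = 0.11) and with total counts (0.21, adjusted p = 0.537), and on the log2(TPM + 1) scale its difference was 0.016 (adjusted p = 0.943), with mean levels of 1.56 TPM in young microglia and 1.61 TPM in young cord. The folds of the other members were also smaller on other scales: Ctss differed by log2 7.26 with total counts and 7.03 on log2(TPM + 1), and Cst7 by 6.54 and 4.28. The median log2 fold change of all genes between these tissues was -0.48 with TMM, -0.96 with DESeq2 size factors and -1.29 with total counts, and the 9 other members lay far above each of these.

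The change with age differed between the tissues for 8 members, tested as an interaction over all 48 libraries, beside 20.5% of genes called (5.44% higher and 15% lower in microglia than in cord). Ctse changed more in microglia (difference in log2 fold change, microglia minus cord, 2.51, SE 0.45, adjusted p = 4.91e-05 by edgeR). The age change of Ctss was smaller in microglia than in cord (-1.61, SE 0.16, adjusted p = 2.01e-10), as was that of Ctsd (-0.95, SE 0.13, adjusted p = 2.55e-07) and that of Ctsz (-0.63, SE 0.16, adjusted p = 0.00445). For Cst7 the difference was -1.84 (SE 0.39, adjusted p = 0.00058), on the 22 reads of young cord, and 0.09 (adjusted p = 0.829) on the log2(TPM + 1) scale. Cst3, lower with age in microglia and not called in cord, differed by -0.82 (SE 0.21, adjusted p = 0.00297). The differences of Ctsc (-0.37, adjusted p = 0.02) and Ctsh (-0.49, adjusted p = 0.0231) were lost with DESeq2 size factors, with total counts and without old repopulating cord replicate 6 (-0.22 and -0.34). Ctsb (0.06, adjusted p = 0.795) and Ctsl (0.13, adjusted p = 0.788) were not called, with or without that library (0.21 and 0.29 without it). The median of all genes was -0.15 with TMM and -0.01 with DESeq2 size factors, with 26.6% and 49.3% of the called genes higher in microglia.

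The change with repopulation was not called as different between the tissues for any member, beside 11% of all genes. At an unadjusted p under 0.05 there was 1 member with edgeR (Cst3, -0.44, adjusted p = 0.175) and 0 with DESeq2, and the share of all genes at that threshold was not computed. Cst3 was called with total counts (-0.53, adjusted p = 0.0433) and on the log2(TPM + 1) scale (-0.41, adjusted p = 0.0156), where Ctsz was called too (-0.30, adjusted p = 0.0312). Without old repopulating cord replicate 6, with TMM, the difference of Cst3 was -0.06 (adjusted p = 0.837) and that of Ctsz 0.018, and no member was called; the other scales were not run without that library.

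Of the genes that carry and mature cathepsins, 6 of 18 were called higher and 0 lower in old repopulating than in old microglia with TMM, 5 higher and 3 lower with total counts, and 1 higher and 6 lower on the log2(TPM + 1) scale. Between old and young microglia 3 were higher and 3 lower with TMM, 4 and 2 with total counts, and 3 and 5 on the log2(TPM + 1) scale. Of all genes tested with TMM, 9.05% were called higher in the first of these comparisons. In the second, 11% were higher and 10.7% lower. With total counts 3369 of 14382 genes were called in the first, 17.6% of them higher, and on log2(TPM + 1) 4779, 10.4% of them higher. Most called genes of the whole table were thus lower there on both scales. In the second, 2757 (60.4% higher) and 3630 (40.7% higher) were called. Grn, the progranulin that binds pro-cathepsin D, had 6684 ± 1287 CPM in old repopulating and 3800 ± 504 CPM in old microglia (log2 0.81, adjusted p = 3.05e-07 by edgeR). Gnptab, a subunit of the enzyme that makes the mannose 6-phosphate tag, had 76.8 ± 8.91 CPM in old repopulating, 55.3 ± 6.18 CPM in old and 30.7 ± 3.37 CPM in young microglia. With TMM its log2 difference was 0.47 for old repopulating against old (adjusted p = 0.000147 by edgeR) and 0.85 for old against young (adjusted p = 5.76e-09). Igf2r, a receptor for that tag, had 18.1 ± 5.30 CPM in old and 4.07 ± 1.46 CPM in young microglia (log2 2.15, adjusted p = 7.99e-08). In cord, Grn was the 1 gene of the 18 called in old repopulating against old mice, beside 0.148% of all genes tested. It had 171 ± 40.7 against 113 ± 9.91 CPM (log2 0.60, adjusted p = 0.0103 by edgeR). Of the 18, 3 were higher in old than in young cord, beside 4.88% of all genes tested.

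Of 6 further cathepsins, 3 were higher and 1 lower in old repopulating than in old microglia with TMM, beside 16.2% of all genes called, 9.05% higher. As described above, this comparison depended on the scaling. Ctsf, an endopeptidase, had 492 ± 21.0 CPM in old repopulating, 323 ± 37.7 CPM in old and 381 ± 28.7 CPM in young microglia. It was higher in old repopulating than in old microglia (log2 0.61, adjusted p = 4.96e-08 by edgeR) and lower in old than in young microglia (log2 -0.24, adjusted p = 0.00648). Ctsa, a serine carboxypeptidase, had 2158 ± 192 CPM in old repopulating and 1672 ± 137 CPM in old microglia (log2 0.37 with TMM, adjusted p = 7.16e-05 by edgeR). Ctsk, known as the collagenase of osteoclasts, ranged from 0.472 to 71.0 CPM between old repopulating libraries, with a median of 3.38 CPM, and from 0 to 1.31 CPM in young microglia. The 8 cathepsins of the mouse placenta (Cts3, Cts6, Cts7, Cts8, Ctsj, Ctsm, Ctsq and Ctsr) had no read in any library of sorted microglia.

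Of 17 other inhibitors listed, 5 were tested in microglia, and 4 of them were higher in old than in young mice, beside 11% of all genes tested. Serpinb1a, an inhibitor of neutrophil serine proteases, had 8.36 ± 4.54 CPM in old repopulating, 19.5 ± 7.40 CPM in old and 2.74 ± 0.763 CPM in young microglia. It was higher in old than in young microglia (log2 2.82, adjusted p = 7.32e-09 by edgeR) and lower in old repopulating than in old microglia (log2 -1.22, adjusted p = 0.0018), as neutrophil markers were. Cstb, the cytosolic stefin B, had 45.7 ± 9.82 CPM in old repopulating, 39.3 ± 8.66 CPM in old and 21.4 ± 2.96 CPM in young microglia, and was higher in old than in young microglia (log2 0.88, adjusted p = 7.99e-06).

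Of 8 listed genes of class II antigen presentation and Toll-like receptors, 6 were higher and 1 lower in old than in young microglia. Of all genes tested, 11% were higher and 10.7% lower there. In old repopulating against old microglia, 1 of the 8 was higher and 5 were lower, beside 16.2% of all genes called, 9.05% higher. H2-Aa, a class II chain, had 239 ± 125 CPM in old repopulating, 1043 ± 519 CPM in old and 290 ± 88.9 CPM in young microglia (log2 -2.13 and adjusted p = 2.28e-07 for old repopulating against old, log2 1.84 and adjusted p = 9.03e-07 for old against young, edgeR). In cord 1 of the 8, Tlr7, was higher in old than in young mice (5.77 ± 0.913 against 2.49 ± 0.531 CPM, log2 1.21, adjusted p = 1.38e-06), beside 4.88% of all genes tested. Of the 4 serine proteases activated by Ctsc that were tested in microglia, Prtn3 alone was higher in old than in young mice (10.5 ± 5.94 against 1.71 ± 1.90 CPM, log2 2.61, adjusted p = 0.0194 by edgeR), beside 11% of all genes tested.

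Of 7 transcription factors of lysosomal and myeloid genes, 1 was higher and 2 were lower in old than in young microglia. Of all genes tested, 11% were higher and 10.7% lower in that comparison. Tfe3 had 205 ± 15.7 CPM in old and 251 ± 12.3 CPM in young microglia (log2 -0.29, adjusted p = 0.000962 by edgeR), and Tfeb had 61.1 ± 5.69 and 77.3 ± 7.76 CPM in the same groups (log2 -0.34, adjusted p = 0.002). Ctsd holds the E-box core at 98 and 245 bases before its RefSeq start, the nearer in a GENCODE exon, and was not called in that comparison. Ctsl, which holds it once, in a GENCODE exon, was higher in old. Ctsc, Ctss, Ctsz and Cst7, with no CACGTG in the 250 bases searched, were also higher in old, and Cst3, also with none, was lower. Any part of these factors in the members' levels was not tested. In old repopulating against old microglia, Ciita, the activator of class II genes, was the 1 factor called with TMM, beside 16.2% of all genes tested. It had 4.90 ± 3.28 against 13.6 ± 7.27 CPM (log2 -1.47, adjusted p = 0.0144 by edgeR). With total counts 5 of the 7 were lower, and on the log2(TPM + 1) scale all 7. On these scales 3369 and 4779 of 14382 genes were called, 17.6% and 10.4% of them higher. The median log2 fold change of all genes was -0.21 on both, so these counts are not read as particular to the factors. In cord 2 factors were higher in old than in young mice, beside 4.88% of all genes tested: Irf8 (11.5 ± 1.45 against 5.03 ± 1.41 CPM, log2 1.198, adjusted p = 9.43e-07) and Spi1 (5.75 ± 0.908 against 2.68 ± 0.463 CPM, log2 1.10, adjusted p = 1.94e-06 by edgeR).

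The genes whose level followed each member most closely were found by Pearson correlation of log2 CPM over the 24 microglia libraries, among 9325 genes, and described with no test, since the libraries share their groups, depth and scaling. Cst7 ran closest with Hcar2 (r = 0.987) and Pdcd1 (0.983), and Ctse with Capg (0.98) and Anxa5 (0.977). Ctsd ran closest with Hexa (0.976) and Grn (0.975), and Ctsb with Scpep1 (0.979) and Gltp (0.975). Ctsh ran closest with Npc2 (0.985) and Eef1g (0.984), Ctss with Sdf4 (0.968) and Rpl6 (0.966), and Ctsz with H2-T23 (0.96) and Pea15a (0.946). Cst3 followed Ctc1 (0.944) and Smap2 (0.943). The likeness was weaker for Ctsl, with Slc16a3 (0.867) and Cd9 (0.862), and for Ctsc, with Glud1 (0.849) and Slc44a1 (0.848).

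Over the 24 cord libraries, among 12187 genes, Ctss ran closest with C1qc (0.988) and Laptm5 (0.987), Cst7 with Cd68 (0.973) and Trem2 (0.967), Ctsd with Hexa (0.977) and Grn (0.971), and Ctsz with Hexa (0.989) and Cyba (0.983). Hexa and Grn were the 2 closest genes of Ctsd in both tissues. Old repopulating replicate 6 was the highest cord library for Ctsd, Ctsz, Ctss and Cst7, and the correlations were not run without it. Cst3 followed Vegfb (0.985) and Rps24 (0.983), a ribosomal protein gene, and both its own highest level and the highest ribosomal share of cord were in old repopulating replicate 6.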

How the data were processed

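The authors deposited whole-number counts of reads per gene, which were used as they stand, and TPM values, which the authors scaled by gene length and library and which served for levels between genes and as an alternative. FPKM values are part of the deposit and were left aside. STAR 2.5.2b and the build GRCm38.p5 are named in the submitters' processing notes, and the counting tool is not given in the sources used here. Per the labels' protocols, the libraries were made from polyadenylated RNA with a kit that does not keep the strand. Gene positions come from GENCODE M21 on GRCm38 and promoters from RefSeq on GRCm38.p6.

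Low counts were filtered with filterByExpr (minimum count 10, minimum total 15), libraries were scaled by TMM, and genes were tested by the quasi-likelihood method of edgeR 4.0.16 under R 4.3.3. Each tissue was fitted over its 24 libraries, and comparisons between tissues over all 48. Adjustment over all genes tested followed Benjamini and Hochberg, and an adjusted p under 0.05 was called. The procedure was also run on simulated counts with known changes. That simulation held no shift in scaling and no library that stood apart, so it does not bear on either. Log2 CPM values for correlations used a prior count of 1. No library was a duplicate of another in its group, since each of the 168 pairs differed beyond sampling noise. Within each tissue, same-numbered libraries of different groups did not deviate together, so replicate numbers were not treated as pairs. Pairing of microglia with cord libraries was not checked, and the tests between tissues treat them as independent.

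All 10 members are named in every comparison; from each pathway or marker list up to 2 called genes with the smallest adjusted p, some of them only in the counts, and for each member the 2 genes with the highest correlation among those with a mean of at least 5 CPM. The cord version of that correlation was added after the data were seen. The members and lists were chosen with earlier results of these data known. One gene of the microglial marker list is not reported here and was left out of its sums and counts. Alternatives were DESeq2 size factors and its Wald test (DESeq2 1.42.0), total-count scaling, TMM on totals without the members, no low-count filter, limma 3.58.1 on log2(TPM + 1) and log2(TPM + 0.1), a replicate block, only the 2 groups compared, each library left out in turn, and old microglia replicates 2 and 7 left out together; old repopulating microglia replicates 1 and 5 were left out together after the data were seen.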

Additional observations from a re-analysis of the deposited data

Results flagged for a closer look

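The groups of values checked for outliers share libraries and scaling, so the nominal rate of Dixon's test, about 1 in 20, does not apply to their count. Single libraries stood apart from the other 7 of their group by this test in 16 of 84 groups of values checked. Of these, 8 belong to old repopulating cord replicate 6, the highest of its group for Cst3 (1657 CPM), Cst7 (12.66 CPM), Ctsb (1474 CPM), Ctsd (1836 CPM), Ctsh (69.28 CPM), Ctsz (252 CPM), the members' share of reads (0.5287%) and the share of ribosomal protein genes (3.172%). Young microglia replicate 7 was the highest of its group for Cst3 (23655 CPM), Ctsh (869.3 CPM), the members' share of reads (6.207%) and the ribosomal share (2.791%). Ctsc was lowest in old cord replicate 5 (25.46 CPM) and in old microglia replicate 8 (594.1 CPM), and Ctss was highest in young cord replicate 5 (80.99 CPM). Old microglia replicate 2 had the fewest assigned reads of its group, 18741936.

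With TMM, the age change differed between the tissues, by the interaction test of edgeR, for 8 members, beside 20.5% of all genes tested. With DESeq2 size factors or total counts, 1 member was higher and 5 were lower, and Ctsc and Ctsh were lost. Without old repopulating cord replicate 6, 6 members were called. On the log2(TPM + 1) scale the difference of Cst7 was 0.09. With TMM and all libraries, the difference in log2 fold change, microglia minus cord, was 2.509 for Ctse, -1.836 for Cst7, -1.606 for Ctss, -0.9456 for Ctsd, -0.8246 for Cst3, -0.6267 for Ctsz, -0.4885 for Ctsh and -0.3732 for Ctsc. The 9 microglial markers, lower in old than in young microglia, included 4 that were higher in old than in young cord. The part of the cells' number or makeup, or of brain against cord, in these differences was not tested.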

How the results depend on the processing

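Of 1820 values recomputed under the alternatives, 1694 kept their direction and their side of the threshold. A further 54 changed sign while called in neither setting (in 14 comparisons of a member). Among the rest, 46 lost the call and kept their sign, 21 gained it, and 5 lost the call and changed sign. The 5 were on the TPM scales: Ctsc (-0.001066 and -0.001084) and Ctsl (-0.02965 and -0.02969) in old repopulating against young microglia, and the tissue difference of the age change of Cst7 (0.09328); the cause was not tested. The 9 counts of called genes were 2336 for old repopulating against old microglia, 4698 for old repopulating against young microglia, 27, 1123 and 1839 for old repopulating against old, old against young and old repopulating against young cord, and 3913 and 2107 for the tissue differences of the age and the repopulation change, beside 2 that moved little. On log2(TPM + 1) and log2(TPM + 0.1) they became 4779 and 4643, 7378 and 7478, 13 and 12 (old repopulating against old cord), 1030 and 1003 (old repopulating against young cord), and 2076 and 1835 (age tissue difference). DESeq2's Wald test called 66 genes in old repopulating against old cord. With only the 2 groups compared, 1844 genes were called in old against young and 1211 in old repopulating against young cord. With total counts, 2606 genes were called for the tissue difference of the age change and 3307 for that of the repopulation change, with 1 member there, and 2 members on either TPM scale. Leaving out 1 library in turn gave 2009 to 2599 genes and 4 to 5 members in old repopulating against old microglia, 2659 to 3281 and 8 to 9 in old against young microglia, 4290 to 4772 and 10 in old repopulating against young microglia, 16 to 57 and 0 in old repopulating against old cord, 945 to 2109 and 6 to 7 in old against young cord, and 1507 to 2561 and 7 in old repopulating against young cord. In old repopulating against old cord, 57 were called without old repopulating replicate 7, 17 without old replicate 2, 7 or 8, and 16 without old replicate 6. The 2109 in old against young cord were called without old repopulating replicate 6, a choice made after seeing the data; without it 16405, 3240 and 2669 genes and 10, 6 and 0 members were called between young microglia and young cord and for the tissue differences of the age and the repopulation change.

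A replicate block called 2219, 2909 and 4610 genes in the 3 microglia comparisons (old repopulating against old, old against young, old repopulating against young), 19, 953 and 1408 in the same cord comparisons, and 13532, 3832 and 2018 in the tissue comparisons. Members called with the block were 4, 9, 10, 0, 6, 7, 9, 8 and 0 in the same order, and Ctse between young microglia and young cord was the 1 lost (adjusted p = 0.0945). Same-numbered libraries correlated between -0.116 and 0.133 in microglia and between -0.493 and 0.431 in cord, and at most 2 of 8 correlated best with their own number, so the numbers are not known to pair libraries. Depth limits Ctse and Cst7 most: young cord held 251 reads of Ctse and 22 of Cst7 over 8 libraries.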
